A study of Mus musculus with 6 samples.

Results

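The matrix metalloproteinases described here are 10 genes, Mmp2, Mmp3, Mmp9, Mmp10, Mmp11, Mmp12, Mmp13, Mmp14, Mmp19 and Mmp23, chosen by name as the gelatinases, stromelysins, collagenase, elastase and membrane-linked enzymes of the family. All 10 were found among the 19865 gene symbols of the count tables, and 7 of them passed the filter on low counts that 10194 genes passed. The study asked what an active form of Srebf1c, a transcription factor of lipid synthesis, does to lung fibroblasts during bleomycin injury. Both groups were C57BL/6 fibroblasts with the genotype Col1a2-GFP Transgenic, a green fluorescent reporter under the Col1a2 collagen promoter. They were transduced by retrovirus with a doxycycline-inducible active form named trSrebf1 or with a control vector, both marked by the surface receptor hLNGFR. Host mice received 2 mg/kg of bleomycin, the cells were placed in the trachea on day 5, doxycycline was given on day 7 and the cells were sorted on day 10. The protocol text on doxycycline is the same in the labels of both groups. Each of the 3 control and 3 trSrebf1 libraries came from 10000 live sorted cells that were GFP and hLNGFR positive and negative for CD45, CD31, EpCAM, CD146 and Ter119. Whether the 3 libraries of a group stand for different mice or cultures is not in the labels, so p-values reflect only how much these libraries varied, which may be technical variation.

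Matrix metalloproteinases are zinc enzymes that cut collagens, elastin, proteoglycans and many secreted proteins. They are made as inactive precursors that are activated by furin-type convertases inside the cell, by plasmin or by other metalloproteinases, and the TIMP proteins inhibit the active enzymes. In injured lung, fibroblasts are a source of Mmp2 and Mmp14, while neutrophils and macrophages are known sources of Mmp9 and Mmp12.

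The catalytic zinc is held by histidines in a short stretch that defines the family, and the coding sequence of this stretch is shown to let a reader see how the 10 genes resemble each other. It was read from the GENCODE M21 transcripts on GRCm38, the assembly also named mm10, and capitals mark the codons of the zinc-binding histidines.
Mmp2: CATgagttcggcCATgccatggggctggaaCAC
Mmp9: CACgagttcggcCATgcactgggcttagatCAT
Mmp3: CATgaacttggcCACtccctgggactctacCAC
Mmp10: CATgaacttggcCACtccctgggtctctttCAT
Mmp11: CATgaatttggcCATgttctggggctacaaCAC
Mmp13: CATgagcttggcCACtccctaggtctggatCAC
Mmp12: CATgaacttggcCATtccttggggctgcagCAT
Mmp14: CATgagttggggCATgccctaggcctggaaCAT
Mmp23: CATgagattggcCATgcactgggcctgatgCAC
Mmp19: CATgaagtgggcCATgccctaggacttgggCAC
Over these 33 bases, the stromelysins Mmp3 and Mmp10 shared 29, the highest number of any pair. The gelatinases Mmp2 and Mmp9 shared 25 of 33, and Mmp3 and Mmp9 shared 20, the lowest number. A furin-type cleavage site ahead of the zinc stretch was found in the coding sequences of Mmp11 (codon 98), Mmp14 (codon 108) and Mmp23 (codon 76), and in none of the other 7 by the same search.

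Of the 10 genes, Mmp3, Mmp10, Mmp12 and Mmp13 lie in a cluster of 10 metalloproteinase genes on chromosome 9, between positions 7272514 and 7699585. Among the members with a RefSeq promoter window, these were also the ones with a match to the AP-1 motif TGANTCA. Fos and Jun proteins bind this motif. Each window (GRCm38.p6) ran from 250 bases before to 50 after a gene start. Windows were given for 7 of the 10 members. Mmp2, Mmp9 and Mmp19 had none and were not searched for any motif. The motif, searched on both strands, was in 7.81% of all 32851 windows. The 47 bases around each match are shown on the plus strand, on which these genes are read, with the motif in capitals.
Mmp13, chr9:7272459-7272505: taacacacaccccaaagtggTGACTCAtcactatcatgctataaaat
Mmp12, chr9:7347310-7347356: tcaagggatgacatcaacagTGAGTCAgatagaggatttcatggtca
Mmp3, chr9:7445756-7445802: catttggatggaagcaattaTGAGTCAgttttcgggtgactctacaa
Mmp10, chr9:7502259-7502305: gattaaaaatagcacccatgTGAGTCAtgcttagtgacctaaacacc
The match began 35 bases before the start of Mmp13, 44 before the second listed start of Mmp12, 46 before that of Mmp3 and 63 before that of Mmp10. The sterol regulatory element TCACNCCAC, the form bound by SREBP proteins, had no match in the windows of these 7 members and was in 1.24% of all windows. The 250 bases before the starts of Mmp3 and Mmp14 are shown because these are the expressed member of the chromosome 9 cluster and the member with the most counts. Capitals mark matches to AP-1, to the sterol element and to the PEA3 motif AGGAAG, which is bound by Ets factors and was in 35.4% of all windows.
Mmp3, chr9:7445572-7445821, plus strand: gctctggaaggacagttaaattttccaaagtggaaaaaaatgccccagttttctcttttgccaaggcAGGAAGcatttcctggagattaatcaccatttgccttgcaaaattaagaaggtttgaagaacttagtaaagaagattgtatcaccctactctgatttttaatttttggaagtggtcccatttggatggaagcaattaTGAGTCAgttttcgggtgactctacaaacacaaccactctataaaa
Mmp14, chr14:54431348-54431597, plus strand: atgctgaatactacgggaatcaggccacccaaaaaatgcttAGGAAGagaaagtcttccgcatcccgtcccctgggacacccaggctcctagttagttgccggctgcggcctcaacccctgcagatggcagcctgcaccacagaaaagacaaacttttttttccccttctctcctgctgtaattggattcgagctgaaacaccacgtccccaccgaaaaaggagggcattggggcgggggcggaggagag
The Mmp3 stretch holds a PEA3 match 183 bases before the start in addition to the AP-1 match, and the Mmp14 stretch holds a PEA3 match at 209 bases. The whole Mmp3 window had a GC content of 40% and the Mmp14 window 56%, against a median of 52.7% over all windows. A match is a run of letters and does not show that a factor was bound.

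Libraries held 3675146 to 4688196 counts. Srebf1 rose from 32, 20 and 33 counts in the control libraries to 133, 123 and 108 in the trSrebf1 libraries, by 1.98 on the log2 scale (SE 0.23, adjusted p = 2.88e-06 by edgeR). Counts of the gene and of the vector cannot be told apart in the tables. Ctsd, a lysosomal protease gene, took 0.86% to 0.95% of control counts and 6.53% to 6.81% of trSrebf1 counts. All 9 fibroblast markers were found, with summed levels of 29790 to 35020 CPM in control and 21040 to 24010 CPM in trSrebf1 libraries. The test called 7 of them lower and 1, Pdgfrb, higher, beside 13.0% lower and 17.2% higher over all tested genes. CPM values put all libraries on 1 total, after edgeR's TMM factors, and levels are means ± SD over 3 libraries where no library is named. Tags come from the 3′ end and were not divided by length.

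Of the 7 members that were tested, Mmp9 was higher in the trSrebf1 libraries and Mmp2, Mmp3, Mmp11, Mmp14, Mmp19 and Mmp23 were lower, each at an adjusted p under 0.05. Mmp9, a gelatinase, moved from near the limit of the filter to a level of 58.8 CPM, while its relative Mmp2 fell to 113 CPM. Mmp14, the membrane enzyme that activates Mmp2, fell by 0.47 on the log2 scale, and the stromelysin Mmp3 fell by 3.36. Mmp10, Mmp12 and Mmp13 had a total of 1 count each over the 6 libraries. Across all tested genes, 17.2% passed as higher and 13.0% as lower, and the groups did not overlap in CPM in 23.1% (higher) and 20.2% (lower). None of the 7 tested members overlapped between the groups. The median log2 fold change was -0.78 over these 7 and -0.01 over all tested genes. Mmp3 and Mmp11 reached the filter level of 2.41 CPM only in the control libraries, and Mmp9 reached it in all 3 trSrebf1 libraries and in 1 control library. A gene of this kind is tested because 1 group is high, so the count of 7 is a description and not a measure of how often metalloproteinases change.

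**Figure D1:**
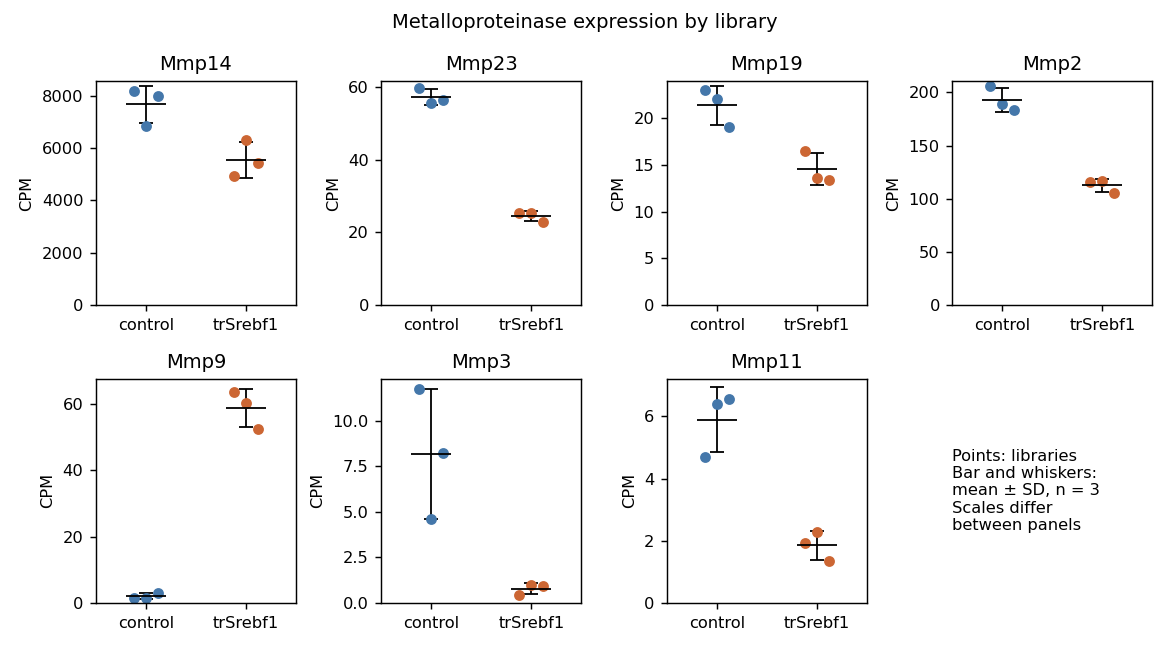
Level of each tested metalloproteinase in CPM (vertical axes, on a scale of their own in each panel) in the 3 control and 3 trSrebf1 libraries, with points for libraries and bars for mean ± SD. The groups are separate in all 7 panels, and Mmp9 is the 1 gene with the trSrebf1 libraries on top.

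The gelatinases cut denatured collagen and the type IV collagen of basement membranes. Mmp2 (chromosome 8, 92827291 to 92853420, plus strand) is the form that fibroblasts make without stimulation. It had 206, 189 and 183 CPM in control libraries 1 to 3 and 116.0, 116.5 and 105.5 CPM in trSrebf1 libraries 1 to 3. All 3 trSrebf1 libraries lay below the lowest control library. The mean went from 193 ± 11.5 to 113 ± 6.21 CPM, a log2 change of -0.78 (SE 0.11, 95% interval -1.01 to -0.54, adjusted p = 3.0e-05).

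Mmp9 (chromosome 2, 164940780 to 164955850, plus strand) is the inducible gelatinase. It had 6, 6 and 13 counts in the control libraries, against 297, 239 and 231 in the trSrebf1 libraries. In CPM these were 1.56, 1.54 and 3.05 against 63.6, 60.4 and 52.5. Even the highest control library was far below the lowest trSrebf1 library. The mean of 58.8 ± 5.69 CPM was 28.7-fold that of the control libraries, 2.05 ± 0.87 CPM, and the log2 fold change was 4.80 (SE 0.25, 95% interval 4.28 to 5.32, adjusted p = 1.5e-10).

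Since Mmp9 is well known from cells other than fibroblasts, markers of such cells were read in the same libraries. Of 14 macrophage markers 9 were in the tables, with summed levels of 4.46 to 11.2 CPM in control and 2.35 to 4.09 CPM in trSrebf1 libraries. The integrin gene Itgam had a total of 1 count over the 6 libraries. Tyrobp, the only tested macrophage marker, fell by 2.39 on the log2 scale (adjusted p = 0.00374). It had 18, 23 and 13 counts in control and 2, 1 and 8 with trSrebf1, so it was tested only because control was high. Among the markers too low to test, Csf1r went the other way, with 1, 0 and 0 counts in control and 3, 5 and 1 with trSrebf1. Of 12 neutrophil markers 4 were in the tables, at 7.98 to 11.2 CPM in control and 8.18 to 10.6 CPM in trSrebf1 libraries. Csf3r made up 83.9% and 90.2% of these sums. Too low to test, Camp had 0, 0 and 0 counts in control and 3, 3 and 0 with trSrebf1. Cxcr2 had 5, 5 and 1 against 5, 1 and 0, and Lcn2 had 3, 2 and 3 against 0, 0 and 0. Ptprc, Adgre1, S100a8, S100a9, Mpo and Ly6g were among the listed markers with no row under these symbols, so their levels could not be read. Of 6 markers of osteoclasts and multinucleated macrophages 4 were in the tables, with sums of 26.5 to 29.7 CPM in control and 14.1 to 21.5 CPM in trSrebf1 libraries. Ctsk made up 56.4% of the osteoclast list sums in control and 61.4% with trSrebf1, and did not pass (adjusted p = 0.115). Nfatc1 fell by 0.96 on the log2 scale (adjusted p = 0.0182). Ocstamp, too low to test, had 0, 0 and 0 counts in control and 0, 1 and 2 with trSrebf1. Acp5, also too low, had 7, 6 and 7 against 3, 4 and 6. Tyrobp made up 60.4% of the macrophage sums in control and 25.7% with trSrebf1. In none of these 3 lists did the sum of a trSrebf1 library exceed the highest control library. Single genes held much of these sums. Endothelial markers summed to 1.64 to 2.57 CPM in control and 7.70 to 8.08 CPM in trSrebf1 libraries. Egfl7 held 84.4% of the trSrebf1 sum and was the 1 that passed (3.43 higher on the log2 scale, adjusted p = 1.79e-05). It had 2, 3 and 2 counts against 32, 29 and 25, so it was tested only because trSrebf1 was high. Pecam1, Cdh5 and Tek had no count in the trSrebf1 libraries. Kdr was at 1.10 and 1.08 CPM, and Cldn5 had 0, 0 and 0 counts against 2, 0 and 0. Epithelial markers summed to 10.7 to 16.2 CPM in control and 13.2 to 29.6 CPM with trSrebf1. Epcam had 1 count in each group. Foxj1 was the 1 marker that passed the test (3.34 higher on the log2 scale, adjusted p = 4.8e-05). It had 3, 3 and 1 counts against 34, 23 and 24, so it was tested only because trSrebf1 was high. Of the epithelial markers that were too low to test, Cdh1 had 0, 1 and 0 counts in control and 14, 2 and 11 with trSrebf1, Sftpa1 had 1, 1 and 2 against 6, 5 and 2, and Scgb1a1 had 0, 1 and 2 against 15, 1 and 0, while Krt8 had 1, 3 and 2 against 0, 1 and 0. The part of these cells in the Mmp9 difference was not tested.

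The ratio of the gelatinases within a library needs no scaling between libraries. The log2 ratio of Mmp9 to Mmp2 counts, with 0.5 added to each count, was -6.92, -6.83 and -5.86 in control libraries 1 to 3 and -0.87, -0.95 and -1.005 in trSrebf1 libraries 1 to 3. Mmp2 had more counts than Mmp9 in every library, by a far smaller margin with trSrebf1. The means were -6.54 ± 0.59 and -0.94 ± 0.07, a difference of 5.60 on the log2 scale. The exact two-sided permutation test gave p = 0.1, the smallest value that 3 against 3 libraries allow.

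**Figure D2:**
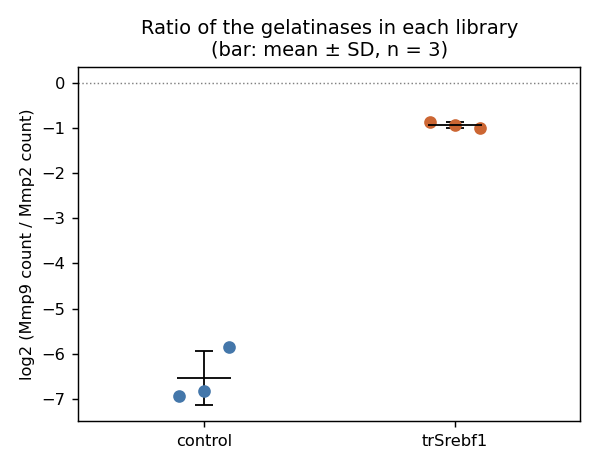
Log2 ratio of Mmp9 counts to Mmp2 counts (vertical axis) in each control and trSrebf1 library, with points for libraries and bars for mean ± SD. The trSrebf1 libraries lie close together near -0.94 and the control libraries around -6.54.

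Among the membrane-linked enzymes, Mmp14 (chromosome 14, 54431612 to 54445364, plus strand) cuts fibrillar collagen at the cell surface and activates Mmp2 there. Its level was 8168, 6853 and 7993 CPM in control libraries 1 to 3 and 4939, 6304 and 5430 CPM in trSrebf1 libraries 1 to 3. The highest trSrebf1 library was just below the lowest control library, so the separation was narrow. The mean went from 7671 ± 714 to 5557 ± 691 CPM, a log2 change of -0.47 (SE 0.11, 95% interval -0.69 to -0.24, adjusted p = 0.00284). Near the 3′ end, 138 of 1219 runs of 30 bases in its transcripts also occur in transcripts of other genes, so part of its tags may have been assigned elsewhere.

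Mmp14 made up 95.7% to 96.7% of all member counts in each library. The 10 members together took 0.815% ± 0.051 of the counts of a control library and 0.562% ± 0.055 of those of a trSrebf1 library. With Ctsd left out of the totals, these shares were 0.8222% ± 0.0514 and 0.6025% ± 0.0595. The members without Mmp14 took 0.0295% ± 0.0008 and 0.0208% ± 0.0016 of all counts. The rise of Mmp9 therefore did not bring the sum of the remaining members to the control level in any trSrebf1 library.

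Mmp23 (chromosome 4, 155650655 to 155653384, minus strand) is anchored in the membrane by its amino end and is released when a furin-type site is cut. It had 59.8, 55.7 and 56.3 CPM in the control libraries and 25.5, 25.3 and 23.0 CPM in the trSrebf1 libraries. The libraries of each group were close to each other and far from the other group. The mean went from 57.3 ± 2.19 to 24.6 ± 1.39 CPM, a log2 change of -1.22 (SE 0.15, 95% interval -1.54 to -0.90, adjusted p = 6.1e-06).

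Of the stromelysins, Mmp3 (chromosome 9, 7445822 to 7455975, plus strand) cuts proteoglycans and activates other metalloproteinases. It had 45, 18 and 35 counts in the control libraries, against 2, 4 and 4 in the trSrebf1 libraries. Control library 2 was the lowest of its group and was still above every trSrebf1 library. The mean went from 8.19 ± 3.56 to 0.783 ± 0.311 CPM, 10.5-fold higher in control, with a log2 change of -3.36 (SE 0.49, 95% interval -4.40 to -2.33, adjusted p = 4.0e-05). The trSrebf1 mean rests on 10 counts in all, and 26 of 471 runs of 30 bases near its 3′ end also occur in Gm15242.

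Mmp11 (chromosome 10, 75923222 to 75936496, minus strand), or stromelysin 3, is activated inside the cell by furin. It had 18, 25 and 28 counts in the control libraries, against 9, 9 and 6 in the trSrebf1 libraries. Every control library had more counts than any trSrebf1 library. The mean went from 5.89 ± 1.04 to 1.85 ± 0.459 CPM, a log2 change of -1.66 (SE 0.39, 95% interval -2.48 to -0.84, adjusted p = 0.00307).

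Mmp10, or stromelysin 2 (chromosome 9, 7502352 to 7510240), Mmp13, the collagenase of mouse mesenchymal cells (chromosome 9, 7272514 to 7283331), and Mmp12, the macrophage elastase (chromosome 9, 7344381 to 7369499), were at the limit of detection. Each had 1 count, Mmp10 in control library 2 and both Mmp12 and Mmp13 in control library 3. All 3 genes had 0 counts in the trSrebf1 group, which allows a level of up to 0.225 CPM over the group. The same floor of 3 counts is 0.256 CPM in the control group, so no difference between the groups was detectable at this depth. The 3′ end of Mmp12 also overlaps an exon of Mmp1b on the opposite strand. These limits cover counting error only, since amplified tags are not independent molecules. Mmp3 was thus the 1 tested gene of the chromosome 9 cluster, of which 5 genes were in the tables.

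Mmp19 (chromosome 10, 128790910 to 128800824, plus strand) is an enzyme outside these classes that cuts basement membrane proteins. Its level was 23.0, 22.1 and 19.0 CPM in the control libraries and 16.5, 13.6 and 13.4 CPM in the trSrebf1 libraries. The lowest control library was above the highest trSrebf1 library by a small margin. The mean went from 21.4 ± 2.07 to 14.5 ± 1.71 CPM, a log2 change of -0.55 (SE 0.20, 95% interval -0.97 to -0.13, adjusted p = 0.0432). The call was lost in 7 of 14 alternative settings, with DESeq2 (adjusted p = 0.0865), with no filter (0.0734), with the replicate number as a block (0.0576), without control library 1 (0.112) or 2 (0.111) and without trSrebf1 library 2 (0.110) or 3 (0.135). The 14 adjusted p values ranged from 0.0194 to 0.135. Its 3′ end overlaps an exon of Tmem198b on the opposite strand, and without strand the tags of these genes cannot be told apart.

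The coefficient of variation in the control group was 3.82% for Mmp23, 5.98% for Mmp2, 9.31% for Mmp14 and 9.70% for Mmp19, with 686, 2307, 92069 and 255 counts in turn. It was 17.6% for Mmp11, 43.5% for Mmp3 and 42.2% for Mmp9, with 71, 98 and 25 control counts in all. In the trSrebf1 group Mmp9, with 767 counts, was at 9.67% and Mmp3, with 10 counts, at 39.8%. The order of these spreads was not that of the counts, since Mmp14 and Mmp19 were close in spread and far apart in counts. In these bulk libraries fewer cells that express a gene and less RNA per cell cannot be told apart.

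Of 13 further family members that were listed, 8 were in the tables and 2 passed the filter. Mmp28, or epilysin, an enzyme known from epithelium and wound repair, had 37, 35 and 83 counts in the control libraries, against 206, 122 and 164 in the trSrebf1 libraries. Control library 3 was the highest of its group and lay below every trSrebf1 library. Mmp28 rose from 12.7 ± 5.88 to 37.4 ± 6.63 CPM, by 1.55 on the log2 scale (SE 0.26, adjusted p = 2.33e-04). The 3′ end of Mmp28 overlaps an exon of 1700020L24Rik on the opposite strand. The membrane enzyme Mmp16 averaged 17.8 ± 2.05 CPM without and 11.4 ± 4.44 CPM with trSrebf1, a log2 difference of -0.64 that did not pass (SE 0.27, adjusted p = 0.082). It passed in 3 of 14 alternative settings, without trSrebf1 library 2 (0.0412), with upper-quartile factors (0.0467) and with no filter (0.0484). Without trSrebf1 library 3, the lowest of all libraries for Mmp16, the log2 difference was -0.35 (adjusted p = 0.337), and over the 14 settings it ranged from -0.85 to -0.35. Mmp8, Mmp15, Mmp17, Mmp21, Mmp24 and Mmp25 were too low to test, and Mmp1a, Mmp1b, Mmp7, Mmp20 and Mmp27 had no row under these symbols.

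Of 10 listed inhibitors 4 were tested, and 1 was lower and 0 were higher, beside 13.0% lower and 17.2% higher over all tested genes. Timp3, the inhibitor that is held in the matrix, had 388, 552 and 522 CPM in control and 254, 301 and 255 CPM in trSrebf1 libraries. No trSrebf1 library reached the lowest control library. Timp3 fell by 0.85 on the log2 scale (SE 0.13, adjusted p = 7.8e-05). Timp1, the main soluble partner of Mmp9, was at 72.8 ± 10.1 and 85.8 ± 10.5 CPM, with overlapping groups and a log2 difference of 0.24 (95% interval -0.06 to 0.53, adjusted p = 0.239). Timp2, which links Mmp14 to the Mmp2 precursor, was at 583 ± 84.8 and 548 ± 60.8 CPM, a log2 difference of -0.09 (95% interval -0.35 to 0.17, adjusted p = 0.632). Reck, a membrane inhibitor, was at 3.52 ± 1.40 and 3.7 ± 1.66 CPM, with an interval from -0.85 to 0.97 that is too wide to show a change of moderate size (adjusted p = 0.942).

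Of 17 listed activators and surface partners 12 were tested, of which 4 were higher, 3 lower and 5 did not pass. Over all tested genes 17.2% were higher and 13.0% lower. The median log2 fold change of the list was 0.04. Furin, the convertase that cuts the precursors of Mmp11, Mmp14 and Mmp23, had 24.8, 28.5 and 33.3 CPM in control and 51.8, 54.8 and 48.0 CPM in trSrebf1 libraries. It was higher in every trSrebf1 library, while those 3 members were lower. Furin rose by 0.83 on the log2 scale (SE 0.16, adjusted p = 6.09e-04). Pcsk5, another convertase of the same family, had 143, 114 and 88.3 CPM in control and 43.4, 24.3 and 24.1 CPM in trSrebf1 libraries, a log2 change of -1.90 (SE 0.25, adjusted p = 2.31e-04). The 2 convertases thus moved in opposite directions.

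The plasminogen system cuts several metalloproteinase precursors through plasmin. The tissue activator Plat rose from 264 ± 12.9 to 444 ± 36.6 CPM, by 0.75 on the log2 scale (SE 0.11, adjusted p = 3.1e-05). The urokinase gene Plau fell from 6.27 ± 1.90 to 2.62 ± 0.69 CPM, with a log2 change of -1.26 (SE 0.38, adjusted p = 0.0164), and the call was lost without control library 3 (0.111) or trSrebf1 library 3 (0.0719), within a range of 0.0108 to 0.111 over the alternatives. No library of one group reached the range of the other for these 2 genes.

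At the cell surface, Cd44, a hyaluronan receptor that can hold Mmp9, was at 125, 69.8 and 96.2 CPM in control and 139, 139 and 131 CPM in trSrebf1 libraries. Control library 1 came close to the trSrebf1 libraries. The log2 fold change was 0.49 (SE 0.16, adjusted p = 0.0346). The call was lost in 6 of 14 alternative settings, with upper-quartile factors (0.0895), without control library 2 (0.143) or 3 (0.119) and without trSrebf1 library 1 (0.101), 2 (0.0826) or 3 (0.0692), within a range of 7.1e-04 to 0.143. The integrin gene Itgb3 rose from 1.02 ± 0.476 to 4.51 ± 0.356 CPM, by 2.14 on the log2 scale (SE 0.47, adjusted p = 0.00207). No control library reached the filter level of 2.41 CPM, so Itgb3 was tested because trSrebf1 was high. Cav1, the caveolin that takes part in Mmp14 uptake, fell from 14.5 ± 6.65 to 3.76 ± 1.36 CPM, with a log2 change of -1.91 (SE 0.38, adjusted p = 0.00104). Bsg, a surface glycoprotein known as an inducer of metalloproteinases, was at 5921 ± 287 and 6313 ± 496 CPM, a log2 difference of 0.09 (95% interval -0.11 to 0.29, adjusted p = 0.516).

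**Figure D3:**
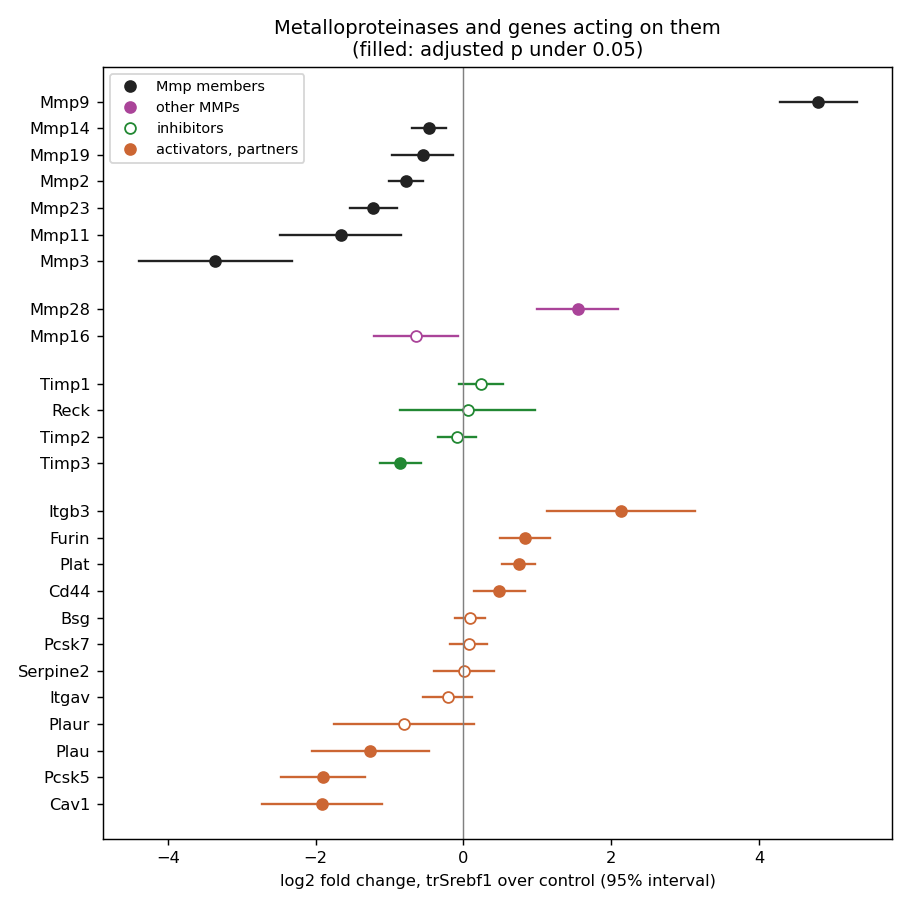
Log2 fold change of trSrebf1 over control (horizontal axis, bars for 95% intervals) for the tested members and the tested genes that inhibit, activate or hold them, with filled points for adjusted p under 0.05. Mmp9 lies at 4.80, apart from the other 6 members between -3.36 and -0.47.

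All 17 listed transcription factors of metalloproteinase promoters were tested, and 1 was higher, 9 lower and 7 did not pass. The shares over all tested genes were 17.2% higher and 13.0% lower. The median log2 fold change was -0.43 beside -0.01 over all tested genes. Fosl1, a Fos protein of the AP-1 complex, had 5.22, 2.82 and 5.40 CPM in control and 0.642, 1.52 and 1.14 CPM in trSrebf1 libraries. Its log2 change was -2.03 (SE 0.49, adjusted p = 0.00377). Only control libraries reached the filter level of 2.41 CPM, so Fosl1 was tested because control was high. The other lower genes, named after their values were seen, were Fos, Fosb, Fosl2, Junb and Jund of the same complex, the Ets factor Ets1, Cebpb and Egr1. The higher gene, named after its values were seen, was Relb of the NF-kB family, which rose from 21.3 ± 2.47 to 38.1 ± 4.96 CPM, by 0.84 on the log2 scale (SE 0.17, adjusted p = 0.00117). Nfkb1 (log2 difference -0.12, adjusted p = 0.451) and Rela (0.02, adjusted p = 0.955) of the same family did not pass. No test was made of a link between these factors and the members.

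All 15 listed receptors of signals that induce metalloproteinases were tested, and 2 were higher, 8 lower and 5 did not pass. Beside this, 17.2% of all tested genes were higher and 13.0% lower. The median log2 fold change of the receptors was -0.46. Il1r1, the interleukin 1 receptor, fell from 66.8 ± 1.02 to 27.5 ± 2.05 CPM, with a log2 change of -1.28 (SE 0.15, adjusted p = 2.5e-06). Tgfbr2, a receptor of transforming growth factor beta, fell from 31.3 ± 5.57 to 12.2 ± 0.407 CPM, with a log2 change of -1.36 (SE 0.20, adjusted p = 3.87e-05). The platelet-derived growth factor receptors parted: Pdgfra fell from 10.6 ± 2.66 to 4.44 ± 1.18 CPM (log2 fold change -1.26, SE 0.31, adjusted p = 0.00452), while Pdgfrb rose from 78.2 ± 6.27 to 142 ± 10.4 CPM (0.86, SE 0.12, adjusted p = 2.69e-05). Tnfrsf1a, a receptor of tumour necrosis factor, rose by 0.56 on the log2 scale (SE 0.14, adjusted p = 0.00627). Pdgfrb and Tnfrsf1a were named after their values were seen.

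All 17 listed matrix substrates were tested, and 1 was higher, 9 lower and 7 did not pass. Among all tested genes 17.2% were higher and 13.0% lower. The median log2 fold change of the substrates was -0.43. Eln, elastin, fell from 922 ± 198 to 349 ± 25.6 CPM, with a log2 change of -1.40 (SE 0.14, adjusted p = 6.1e-07). The proteoglycan gene Dcn fell from 7340 ± 550 to 3360 ± 189 CPM (log2 fold change -1.13, SE 0.10), the microfibril gene Fbn1 from 382 ± 36.7 to 177 ± 9.51 CPM (-1.11, SE 0.11) and the laminin gene Lamb1 from 181 ± 39.0 to 88.4 ± 7.36 CPM (-1.03, SE 0.14). Spp1, osteopontin, which several metalloproteinases cut, had 206, 161 and 214 CPM in control and 1114, 1216 and 1047 CPM in trSrebf1 libraries. Every trSrebf1 library was well above the control libraries, and Spp1 rose by 2.54 on the log2 scale (SE 0.12, adjusted p = 7.4e-11).

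**Figure D4:**
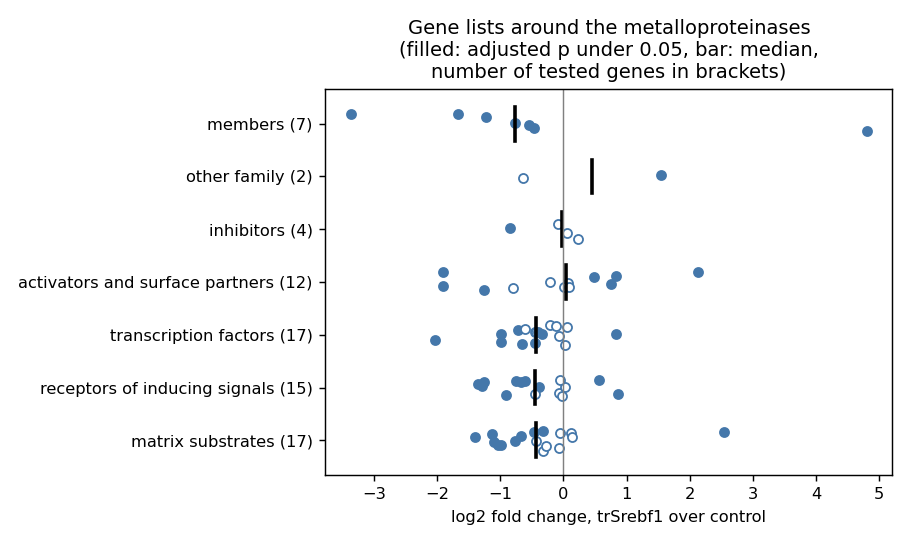
Log2 fold change of trSrebf1 over control (horizontal axis) for each tested gene of the members and of the 6 lists around them, with filled points for adjusted p under 0.05, bars for list medians and the number of tested genes in brackets. Medians lie at -0.78 for the members and at 0.45 for the 2 tested further family members. They lie near 0 for inhibitors and for activators, and between -0.46 and -0.43 for transcription factors, receptors and substrates.

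The genes whose pattern over the 6 libraries was most like that of the gelatinases were ranked among 4347 tested genes with 20 CPM or more in the higher group, by the root mean square distance between log2(CPM + 0.5) values centred on each gene's mean. For Mmp2 the nearest were Elmsan1 (distance 0.037), LOC105242500 (0.053), Ltbp3 (0.055), Bet1 (0.060) and Slc25a4 (0.060). Ltbp3, which binds latent transforming growth factor beta, went from 109, 105 and 99.3 CPM in control to 64.6, 63.2 and 63.0 CPM in trSrebf1 libraries. For Mmp9 the nearest were Insig1 (0.116), Srd5a1 (0.157), Bcl6b (0.171), Tm7sf2 (0.240) and Ankrd33b (0.247). Srd5a1, Bcl6b and Ankrd33b had 0.257 to 1.17 CPM in the control libraries. This is under the filter level of 2.41 CPM, so they were tested because trSrebf1 was high. At such levels the added 0.5 shapes the distance. GENCODE marks the Tm7sf2 locus as overlapping another, so its counts may be uncertain. Insig1, a regulator of sterol synthesis in the endoplasmic reticulum, went from 15.1, 15.1 and 22.1 CPM in control to 417, 382 and 371 CPM in trSrebf1 libraries. Both Mmp9 and Insig1 were highest among the controls in library 3 and highest among the trSrebf1 libraries in library 1. The distance was larger for the neighbours of Mmp9 than for those of Mmp2, and each distance describes these 6 libraries only. It depends strongly on the size of the difference between the groups, so it cannot show a shared regulation.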

How the data were processed

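PolyA RNA of sorted lung fibroblasts was sequenced by 3'SAGE-seq, which reads a tag near the 3' end of each transcript, in 3 control and 3 trSrebf1 libraries. The authors deposited a table of raw counts for each library, with 1 row per symbol. Bowtie2 2.2.5 and the build mm10 are named, with no role, per the submitters' processing notes. How tags were counted, with which annotation and whether by strand, is not given in the sources used here. Genes with overlapping or repeated 3' ends are therefore uncertain.

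The test was edgeR 4.0.16 under R 4.3.3 (TMM factors, filterByExpr with minimum count 10 and total 15, robust quasi-likelihood fit with the group as the only term, prior count 0.125). P-values were adjusted by Benjamini-Hochberg over all 10194 tested genes, with a two-sided threshold of 0.05. Standard errors are the absolute log2 fold change over the square root of F. The script was tested on simulated data. The chi-square per degree of freedom between libraries of a group was 4.52 to 8.13, above sampling noise, so each was kept as a replicate. Alternatives were DESeq2 1.42.0, limma-voom (limma 3.58.1), upper-quartile factors, total counts, no filter, 5 CPM in 3 libraries, a replicate block, leaving out each library, and leaving out Ctsd.

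All 10 members were named. Of the lists, genes past the threshold with a log2 fold change beyond 1 in either direction were named, and Timp1, Timp2, Timp3, Reck, Furin, Plau, Plat, Cd44, Bsg and Srebf1 in any case. A further gene of the activator list is not reported here and was left out of its counts. The members and lists were chosen with earlier results of these data known. Gene positions are from GENCODE M21, and promoters from RefSeq. Mesothelial markers summed to 6.41 to 11.7 CPM in control and 4.04 to 8.99 CPM in trSrebf1 libraries.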

Additional observations from a re-analysis of the deposited data

How the results depend on the processing

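Over 34 genes and 14 alternative settings, 447 values kept their direction and call, 15 lost the call, 3 gained it and 5 changed sign. The calls lost or gained concern Mmp19, Plau, Cd44 and Mmp16, and their values stand beside each gene above. The changes of sign were all for Reck, which was not called in any setting: 0.06 on the log2 scale as reported, -0.023 under upper-quartile factors, -0.025 under total counts, and -0.11 without control library 1, -0.097 without control library 3 and -0.34 without trSrebf1 library 2, within -0.34 to 0.42 when 1 library was left out. The cause was not tested. Of the members, 5 to 7 were called across the settings (6 to 7 without 1 library), and the 5 CPM filter gave 5 because it leaves Mmp3 and Mmp11 untested. Over all genes, 3083 were called, and 2595 to 3445 across the settings. The log2 difference of the Mmp9 to Mmp2 ratio was 5.35 with 2 counts added and 5.40 to 5.94 without 1 library. The labels give both groups the same replicate numbers. Deviations of same-numbered libraries correlated at 0.005, -0.11 and -0.05, and those of differently numbered libraries at -0.067 to 0.11. Not every library correlated best with its own number. With so few libraries this cannot show whether same-numbered libraries shared a preparation. With the replicate block, 6 members were called (5 lower) and 2820 of all genes. Depth limits what can be said of Mmp10, Mmp12 and Mmp13, and leaves few counts behind Mmp3 with trSrebf1 and Mmp9 in control.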
